A study of Mus musculus with 6 samples.

Results

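The genes described here encode proteins of the lysosome: 10 cathepsins and other peptidases, 10 glycosidases, 6 lipid enzymes and their activators, 6 membrane proteins, 4 subunits or accessory proteins of the proton pump, and 2 regulators, the precursor of the granulins (Grn) and the transcription factor Tfeb. The list was fixed by name, and each gene was read from the probe set with the highest mean log2 intensity over all 6 arrays. Of the 38 listed genes, 37 had a probe set with their symbol alone, among 18194 genes on the array. Cd63 was not analysed here. The RNA came from mouse leukemias of the C57BL/6 strain driven by MLL-ENL, a fusion oncoprotein joining the N-terminal part of the histone methyltransferase MLL to the elongation factor ENL. In both groups marrow was transduced with the fusion and grafted into congenic recipients, and leukemic cells were taken at the moribund stage. The groups differed in Runx1, a transcription factor of blood formation, which per the labels was excised in the 3 leukemias labelled Runx1-KO and intact in the 3 labelled Control, although the Runx1 signal was not lower in the former. The titles call the 3 samples of each group biological replicates and do not name donors or transductions. The deleting Cre line, the age and sex of the mice and the tissue harvested are not stated in the labels. The comparison asked how Runx1 deficiency altered gene expression in these leukemias.

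Lysosomes degrade proteins, glycans and lipids with hydrolases that work at acid pH, which a vacuolar proton ATPase maintains. Most of the hydrolases acquire a mannose 6-phosphate tag in the Golgi and are carried to the lysosome by the mannose 6-phosphate receptors M6pr and Igf2r. Tfeb and its relatives Tfe3, Mitf and Tfec bind an E-box element found in many lysosomal promoters. In the myeloid lineage, monocytes and macrophages are rich in lysosomes.

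The arrays carried 45101 probe sets, with median intensities of 24.4 to 26.0. The background limit of an array was set at the brightest of 27 spike-in probe sets that had no target in the sample, and 57.4% to 64.7% of genes read above it. All 6 probe sets of Runx1 read higher, not lower, in the arrays labelled Runx1-KO; the one of highest mean read 1128, 1573 and 1629 there against 680.3, 1021 and 850.0 in the Control arrays. The labels do not say which part of Runx1 was excised, so these probe sets cannot be set against the deletion, and directions in the text refer to the arrays as labelled (hereafter the KO-labelled arrays). Xist read 1624 to 1895 in the KO-labelled arrays and 330.8, 85.4 and 25.3 in the Control arrays, while the Y-linked Eif2s3y read 3.98 to 6.31 against 638.0 to 706.7. Sex and genotype therefore cannot be told apart. Among the listed genes Gla, Lamp2 and Atp6ap1 are X-linked. Hoxa9, a gene that MLL fusions keep active, read 3114 to 3282 on the KO-labelled arrays and 2791 to 2971 on the Control arrays, without overlap. It was 1 of 5 leukemia markers read, 4 with higher means and 1, Myb, with a lower mean. The other 4 overlapped between the groups. Among them Flt3 read 47.0, 7.29 and 150.2 and Kit 122.2, 503.5 and 212.2 on the Control arrays.

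Most lysosomal genes were lower in the KO-labelled leukemias. Of the 37 measured genes, 29 (78.4%) had a lower mean and 8 a higher mean than in the Control leukemias. Means were lower for 50.8% of all genes and 56.7% of the 9703 genes above background on all 6 arrays. The median difference was -0.35 on the log2 scale, against -0.01 over all genes and -0.06 over those above background on all 6 arrays. In 18 genes (48.6%) every KO-labelled array read below every Control array, against 11.7% of all genes and 17.1% of those above background on all 6 arrays. Lyz1 and Lyz2, which the array may not tell apart, were counted as 2 of these 18. The opposite arrangement, every KO-labelled array above every Control array, held for 2 genes (5.41%), Ctsl and Scarb2, against 9.17% of all genes. The other 17 genes overlapped between the groups. The differences were modest, from -0.92 to 0.74 on the log2 scale.

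No single gene passed the threshold. In limma's moderated test with Benjamini-Hochberg adjustment over all 18194 genes, 0 of the 37 had an adjusted p under 0.05, the lowest being 0.295, against 0.0879% of all genes (16 of 18194). Unadjusted p-values under 0.05 were found for 9 genes in the lower direction (24.3%, against 7.01% of all genes) and 2 in the higher direction (against 5.62% of all genes). With a variance trend and robust fitting 1 gene, Lyz2, passed (adjusted p = 0.0441). With 3 arrays against 3 the smallest two-sided p an exact permutation test allows is 0.1, so that test could not pass the threshold either. In bulk RNA, fewer cells of a lysosome-rich type and less lysosomal RNA per cell cannot be told apart.

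Over the 37 genes together, the lower level was seen on each KO-labelled array. The median deviation of the 37 genes from their own means was -0.09, -0.14 and -0.19 on the KO-labelled arrays and 0.14, 0.14 and 0.17 on the Control arrays, in replicate order, while the median of all genes stayed between -0.02 and 0.04. Role groups were less even. The membrane proteins stood at 0.13 on KO-labelled replicate 1, against 0.12, 0.03 and 0.21 on the Control arrays. The peptidases stood at 0.004 on KO-labelled replicate 2. The glycosidases, lipid enzymes and proton pump were below 0 on all 3 KO-labelled arrays. A KO-labelled array held the lowest value in 32 of the 37 genes, and a Control array the highest value in 25. The same counts over all genes were not made. The summed intensity of the 37 genes was 38600 to 40700 on the KO-labelled arrays and 48300 to 51200 on the Control arrays, without overlap.

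**Figure D1:**
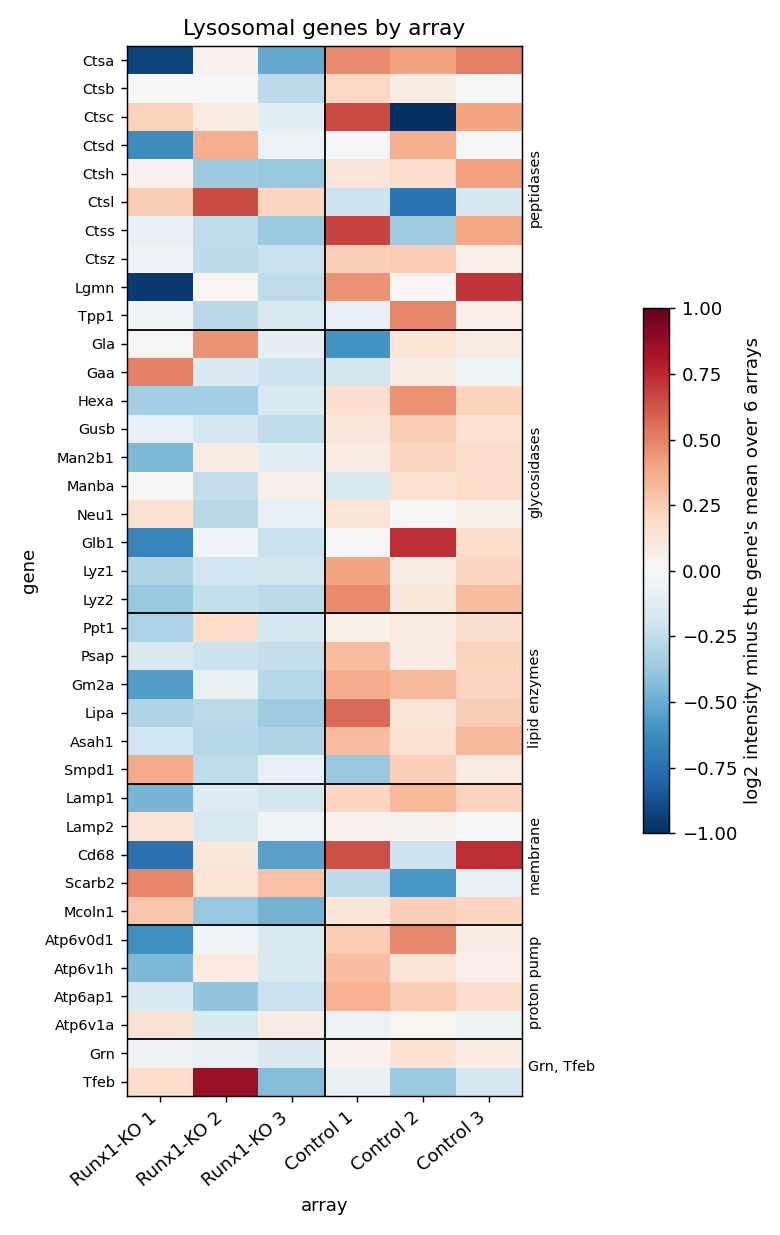
Log2 intensity of the 37 measured lysosomal genes on the 6 arrays, each gene shown as its deviation from its own mean over the arrays (blue lower, red higher; the scale is limited to 1 in either direction), with genes in rows grouped by role. Most rows are blue in the 3 Runx1-KO columns and red in the 3 Control columns; Ctsl and Scarb2 run the other way, and Control 2 is the low array for Ctsc, Ctss and Cd68 among the Control arrays.

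The promoters of these genes were searched for the letters that the Tfeb family binds and are shown here for the genes that hold the longer form. RefSeq promoters (GRCm38.p6, 250 bases before to 50 after each start) were at hand for 33 of the 37 genes. The E-box CACGTG was present in 11 of the 33 (33.3%), against 8.09% of the 27025 genes in the promoter table. The longer TCACGTGA, the core of the element known as CLEAR, was present in 6 (18.2%), against 1.12% of all genes. Because the element is found in many lysosomal promoters, these shares describe the choice of list and are no result of the arrays. Both motifs read the same on either strand, and every TCACGTGA contains a CACGTG. A match is a stretch of letters and was not measured as a binding site. The matching stretches are printed 5′ to 3′ in the direction of the gene, with TCACGTGA in capitals. They lie at chr2:164833735-164833792 on the plus strand (Ctsa, matches beginning 13 bases before the start and at base 5 after it), chrX:134601168-134601255 on the minus strand (Gla, 228 and 195 bases before), chr7:142387894-142387951 on the minus strand (Ctsd, 99 bases before), chr8:3500448-3500505 on the plus strand (Mcoln1, 46 bases before), chr8:105566045-105566093 on the minus strand (Atp6v0d1, 4 bases before) and chr16:44139359-44139416 on the minus strand (Atp6v1a, 132 bases before).
Ctsa: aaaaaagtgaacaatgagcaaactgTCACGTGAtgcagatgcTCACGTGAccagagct
Gla: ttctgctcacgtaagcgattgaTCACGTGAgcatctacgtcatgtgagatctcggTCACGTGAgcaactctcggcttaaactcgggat
Ctsd: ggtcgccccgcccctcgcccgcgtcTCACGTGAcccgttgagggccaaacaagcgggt
Mcoln1: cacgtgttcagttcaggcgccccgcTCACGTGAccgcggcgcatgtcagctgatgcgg
Atp6v0d1: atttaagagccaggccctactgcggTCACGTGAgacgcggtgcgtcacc
Atp6v1a: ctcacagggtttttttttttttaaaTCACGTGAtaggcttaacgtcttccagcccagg
By their means, 4 of the 6 genes were lower and 2 higher. The 2 higher ones, Gla (0.25 ± 0.28) and Atp6v1a (0.05 ± 0.18), overlapped between the groups and lay within 1 SE of 0. Each had a further set above background on all 6 arrays with the opposite sign, at -0.19 and -0.18. The groups did not overlap for 2 of the 6 (Ctsa and Atp6v0d1), and the median difference of the 6 was -0.30. The 27 genes with a promoter and no TCACGTGA had 21 lower, 6 higher, 13 without overlap in the lower direction, and a median of -0.35; over all genes 11.7% were lower without overlap.

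Lamp1, the most used marker of the lysosomal membrane, lacked the longer motif but held 4 E-boxes within 61 bases of its start, capitalised in the stretch chr8:13159075-13159176 on the plus strand.
Lamp1: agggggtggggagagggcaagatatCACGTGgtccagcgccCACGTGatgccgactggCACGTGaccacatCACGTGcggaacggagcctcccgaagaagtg
Among the 33 genes with a promoter entry, no other had more than 2 E-boxes in the 300 bases searched.

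Among the peptidases, 8 of 10 were lower and 2 higher, with a median difference of -0.34 and 4 genes without overlap in the lower direction (4 of 10, against 11.7% of all genes). Ctsa, the protective protein that stabilises beta-galactosidase and neuraminidase, read 401, 781 and 532 on the KO-labelled arrays and 1052, 1002 and 1076 on the Control arrays. The 3 Control values lay close together and all above the highest KO-labelled value, a difference of -0.92 ± 0.28 (SE; 1.89-fold lower; adjusted p = 0.295), the most negative among the 37 genes. Ctsh, an aminopeptidase, read 407, 307 and 303 against 433, 443 and 525, a difference of -0.47 ± 0.21 (adjusted p = 0.416). The groups did not overlap in this set but did in a further Ctsh set of like intensity, at -0.25. Ctsz, a carboxypeptidase, read 2101, 1816 and 1866 against 2568, 2598 and 2268, a difference of -0.36 ± 0.18 (adjusted p = 0.448), again without overlap. Ctsb, a cysteine protease with both endopeptidase and exopeptidase activity, read 2190.5, 2163 and 1834 against 2529, 2318 and 2199.6; the arrays did not overlap, but KO-labelled replicate 1 and Control replicate 3 were nearly equal and the difference was -0.19 ± 0.18 (adjusted p = 0.705), -0.11 without KO-labelled replicate 3.

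Ctsl ran against its family. This endopeptidase read 1184, 1571 and 1159 on the KO-labelled arrays and 865, 603 and 885 on the Control arrays, all KO-labelled arrays being above all Control arrays, a difference of 0.74 ± 0.24 (1.67-fold higher; adjusted p = 0.322). Ctss, the protease that trims the invariant chain in antigen-presenting cells, overlapped. It read 1517, 1346 and 1244 against 2567, 1255 and 2103, with Control replicate 2 inside the KO-labelled range. The difference of -0.47 ± 0.30 was -0.25 without Control replicate 1 and -0.77 without Control replicate 2. Ctsc, the dipeptidase that activates the serine proteases of neutrophil granules, read 486, 442 and 386 against 653, 172 and 545. Control replicate 2 was again the low array, and the difference of 0.15 ± 0.51 changed to -0.45 without it. Ctsc and Ctss were described after their values were seen. Lgmn, an asparaginyl endopeptidase, lay at or below the background limit on every array (5.32, 10.5 and 8.67 against 14.1, 10.4 and 17.0), and no fold is given. Ctsd and Tpp1 overlapped between the groups, with differences of -0.22 ± 0.30 and -0.32 ± 0.22.

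The glycosidases counted 8 lower and 2 higher genes, with a median difference of -0.33. The groups did not overlap for 6 genes, all in the lower direction (60.0%, against 11.7% of all genes and 17.1% of those above background on all 6 arrays). Lyz1 and Lyz2, which the array may not tell apart, were counted as 2 of these 6. Hexa, the enzyme subunit whose loss causes Tay-Sachs disease, read 1976, 1973 and 2254 on the KO-labelled arrays and 2804, 3417 and 2913 on the Control arrays, a difference of -0.56 ± 0.18 (1.47-fold lower; adjusted p = 0.322). The highest KO-labelled array was well below the lowest Control array. Glb1, the beta-galactosidase protected by Ctsa, read 89.7, 139 and 122 against 141, 237 and 161, a difference of -0.61 ± 0.28 (adjusted p = 0.433), with KO-labelled replicate 2 only just below Control replicate 1; it was -0.39 without Control replicate 2. Gusb, beta-glucuronidase, read 895, 839.5 and 797 against 1029, 1131 and 1055, a narrow spread in both groups and a difference of -0.35 ± 0.17 (adjusted p = 0.45). Man2b1, the lysosomal alpha-mannosidase, read 1280.4, 1847.1 and 1627.3 against 1847.4, 2023.6 and 1984.0, so the groups were parted by less than 1 intensity unit, and its difference of -0.32 ± 0.21 became 0.02 when its probe sets were averaged and -0.17 without KO-labelled replicate 1.

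The lysozymes, which cleave bacterial cell walls, were grouped with the glycosidases. Lyz2 read 2427, 2675 and 2619 on the KO-labelled arrays and 4375, 3416 and 3926 on the Control arrays, a difference of -0.60 ± 0.18 (1.51-fold lower; adjusted p = 0.304). Lyz1 read 2879.9, 3092 and 3132 against 4679.9, 3751 and 4135, a difference of -0.46 ± 0.18 (adjusted p = 0.374). Both genes held Control replicate 1 as the highest array and separated the groups fully. They are near-identical neighbours, and the probe set used for Lyz1 is of a class that can hybridise to related transcripts, so the array may not tell the pair apart. The only Lyz1 probe set outside that class lay near background, at 16.2 to 27.1 against 19.1 to 37.3, and overlapped between the groups. The remaining glycosidases, Gla, Gaa, Manba and Neu1, overlapped, with differences between -0.14 and 0.25.

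Of the 6 lipid enzymes and activators 5 were lower, and the median difference was -0.47. Without overlap 4 were lower (66.7%, against 11.7% of all genes and 17.1% of those above background on all 6 arrays). Lipa, the acid lipase that releases cholesterol and fatty acids from lipoproteins, read 334, 340.3 and 321 on the KO-labelled arrays and 609, 447 and 487 on the Control arrays, a difference of -0.62 ± 0.19 (1.54-fold lower; adjusted p = 0.305). Gm2a, the activator that presents GM2 ganglioside for degradation, read 1924, 2692 and 2322 against 3656, 3556 and 3279.6, a difference of -0.61 ± 0.20 (1.52-fold lower; adjusted p = 0.322). Asah1, acid ceramidase, read 814, 770.5 and 759 against 1160.5, 1041 and 1174, a difference of -0.53 ± 0.17 (1.44-fold lower; adjusted p = 0.315). In each of these the KO-labelled arrays lay fully below the Control arrays, and in Lipa and Asah1 they stood close together. Psap, the precursor of the saposins that help sphingolipid enzymes reach their substrates, read 1776, 1716 and 1684 against 2471, 2105 and 2318, a difference of -0.41 ± 0.17 (adjusted p = 0.397). Ppt1 and Smpd1, a thioesterase and acid sphingomyelinase, overlapped, with differences of -0.20 ± 0.20 and 0.03 ± 0.27.

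**Figure D2:**
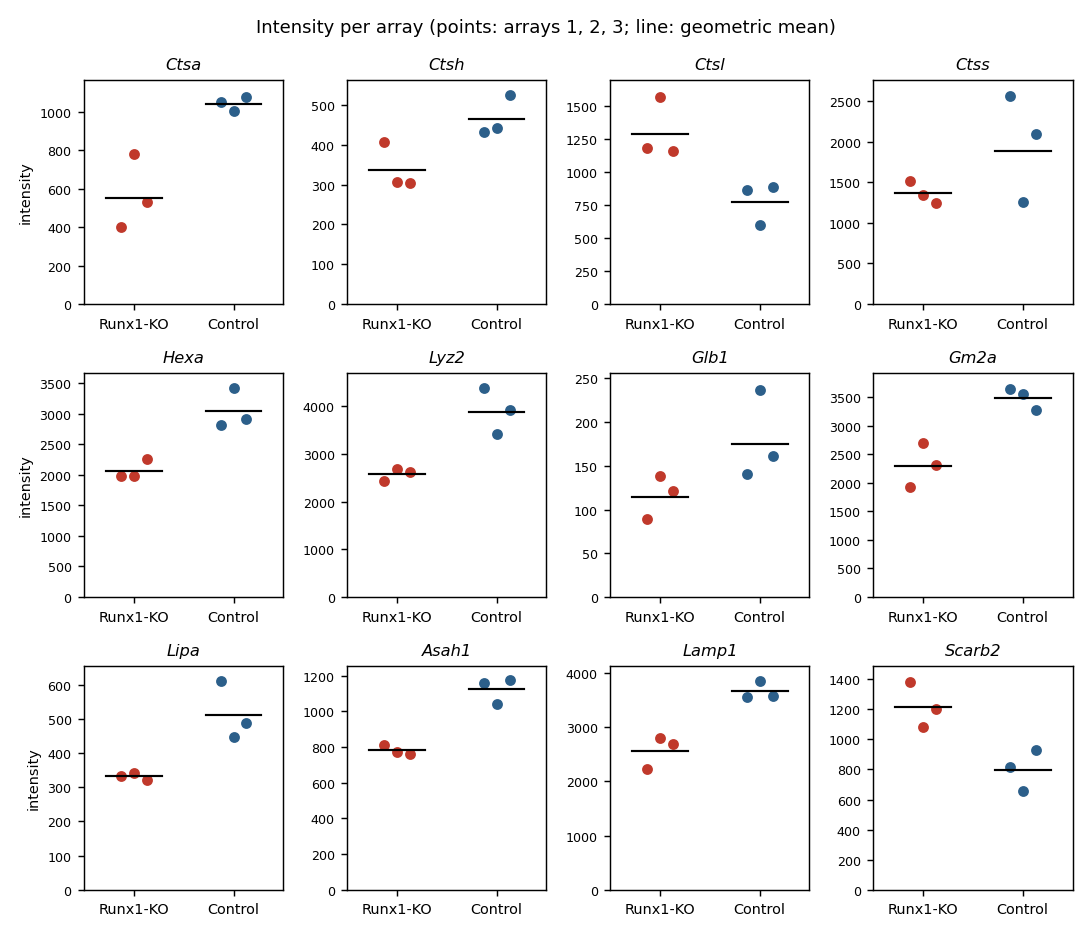
Intensity on a linear axis from 0 in each array for 12 lysosomal genes, with the 3 arrays labelled Runx1-KO in red, the 3 Control arrays in blue and a line at each geometric mean; the panels have different scales. In 9 panels every red point lies below every blue point, in Ctsl and Scarb2 every red point lies above, and in Ctss Control replicate 2, at 1255, falls within the red range.

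The membrane proteins did not share 1 direction. Lamp1 read 2219, 2799.7 and 2688 on the KO-labelled arrays and 3551, 3846 and 3578 on the Control arrays, a difference of -0.52 ± 0.18 without overlap (1.43-fold lower; adjusted p = 0.342). Lamp2, the related protein needed for fusion with autophagosomes, overlapped between the groups, at -0.05 ± 0.17. Scarb2, a membrane protein that also carries cargo to the lysosome, read 1381, 1080.0 and 1204 against 818, 657 and 929, a difference of 0.62 ± 0.22 without overlap (1.53-fold higher; adjusted p = 0.339). Cd68, a glycoprotein of macrophage endosomes and lysosomes, read 138, 249 and 158 against 360.2, 199 and 384, with Control replicate 2 below KO-labelled replicate 2 and a difference of -0.78 ± 0.36 (adjusted p = 0.425), -0.48 without both arrays numbered 1. Mcoln1, a calcium channel of the lysosomal membrane, read 265, 168 and 157 against 237, 259.5 and 253; the Control arrays were tight, KO-labelled replicate 1 was above all of them and the other 2 were below, a difference of -0.39 ± 0.25 (adjusted p = 0.564), -0.62 without KO-labelled replicate 1 and -0.24 without KO-labelled replicate 3. The group's median of -0.39 over 5 measured genes was -0.24 without KO-labelled replicate 3.

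The proton pump counted 3 lower genes and 1 higher, with a median of -0.43 that was -0.28 without KO-labelled replicate 1. Atp6ap1, an accessory protein of pump assembly, read 544, 461 and 517 on the KO-labelled arrays and 769, 722 and 682 on the Control arrays, a difference of -0.51 ± 0.17 without overlap (1.43-fold lower; adjusted p = 0.334). Atp6v0d1, a subunit that joins the membrane sector to the stalk, read 469, 702 and 643 against 858, 1004 and 758, a difference of -0.54 ± 0.23 without overlap (adjusted p = 0.409). KO-labelled replicate 1 was the lowest array for this subunit. Atp6v1h, a regulatory subunit, read 314, 458 and 385 against 532, 470.0 and 449.8, a difference of -0.34 ± 0.21 (adjusted p = 0.548), with a narrow overlap; it was -0.20 without KO-labelled replicate 1 and -0.13 without both arrays numbered 1. Atp6v1a, the catalytic subunit that hydrolyses ATP, read 1370.2, 1114 and 1304 against 1189, 1260.3 and 1194; the arrays were interleaved, at 0.05 ± 0.18 (adjusted p = 0.93), and the sign changed in 3 of 17 alternative analyses.

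**Figure D3:**
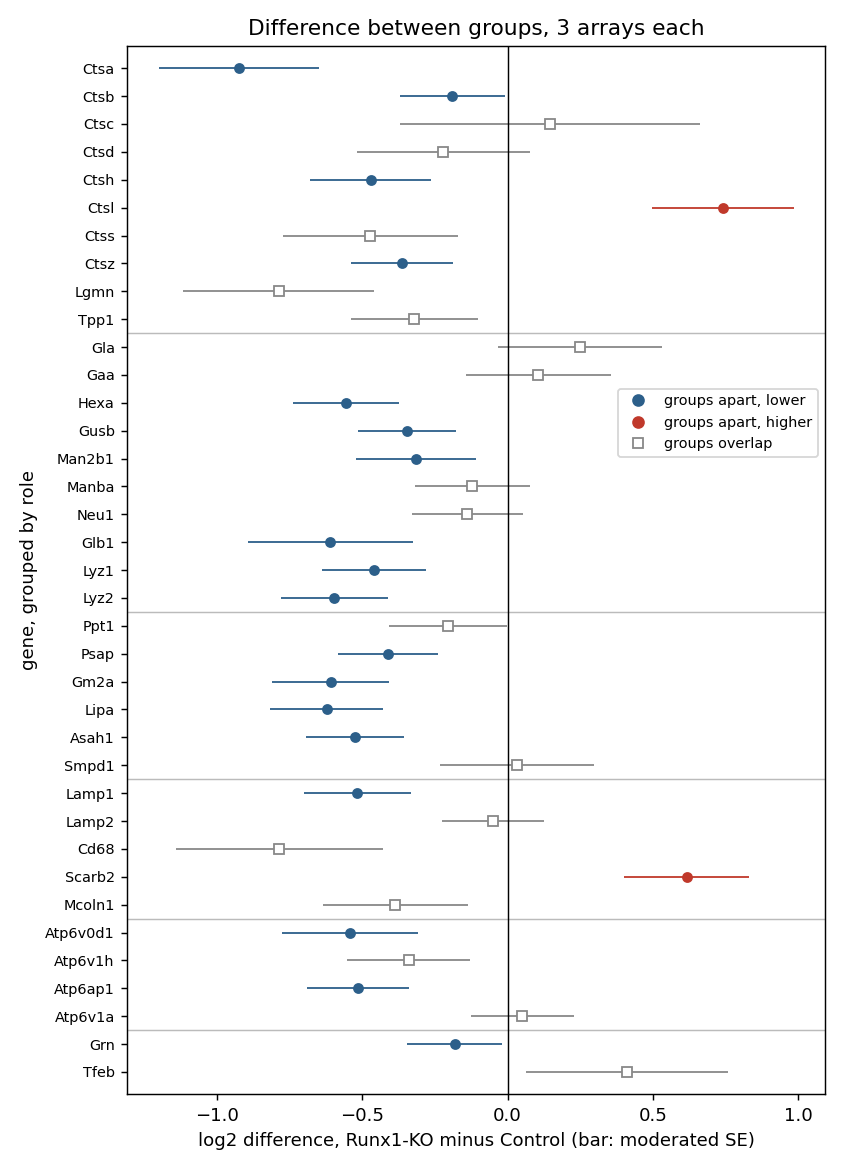
Log2 difference, Runx1-KO minus Control, for the 37 measured genes, with the moderated standard error as a bar; filled symbols mark genes whose 3 arrays per group do not overlap (blue lower, red higher) and open squares those that overlap. Most points lie left of 0, from -0.92 for Ctsa, and the 2 red points, Ctsl at 0.74 and Scarb2 at 0.62, lie to the right; Lgmn, drawn at -0.79, was at or below background on all arrays.

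Probe sets other than the chosen one bore on the size of the differences. The measured genes had 79 probe sets, of which 72 were above background on at least 1 array; 53 of these were lower, 19 higher, 31 lower without overlap (43.1%, against 15.2% of all probe sets above background on at least 1 array) and 3 higher without overlap (4.17%, against 9.06%). For 21 genes at least 2 probe sets were above background on all 6 arrays. In 11 of these all such sets were lower, in 3 all were higher and in 7 they were mixed. In 11 of the 21 every further set gave a more negative difference than the set of highest mean, and in the other 10 at least 1 further set gave a less negative one; among the 11 genes with all sets lower the former held for 9. Lipa had 3 sets that all separated the groups, at -0.62, -0.78 and -1.57; the last read 44.4, 57.8 and 52.2 against 164.8, 135.6 and 156.7. Psap's further set differed by -1.001, that of Gm2a by -1.21, those of Ctsz by -0.80 and -0.78, and that of Neu1 by -0.81, against -0.41, -0.61, -0.36 and -0.14 for the chosen sets. These were picked out after their values were seen, and why probe sets of a gene differed was not tested. Scarb2 separated the groups upward with both of its sets (0.62 and 0.66). Ctsa did not repeat: its further set read only 24.6 to 38.0 and differed by 0.29. Nor did the separation of Ctsh and Ctsb repeat. The further Ctsh set read 490.2, 283.7 and 316.4 against 408.8, 353.2 and 515.5, with overlap. The further Ctsb sets above background on all 6 arrays also overlapped, with differences from -0.35 to 0.08.

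The regulators on the list gave differences of opposite sign. Grn, whose product is cleaved to granulins in the lysosome and is also secreted, read 3764, 3703 and 3538 on the KO-labelled arrays and 4016, 4344 and 4127 on the Control arrays, without overlap but at only -0.18 ± 0.16 (adjusted p = 0.687). Tfeb read 74.9, 120.4 and 48.9 against 62.8, 51.0 and 58.8; KO-labelled replicate 2 stood above the other 5 arrays, KO-labelled replicate 3 below them, and the difference was 0.41 ± 0.35 (adjusted p = 0.664), 0.08 without KO-labelled replicate 2 and 0.73 without KO-labelled replicate 3.

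The relatives of Tfeb did not share a direction. Mitf, known from melanocytes, osteoclasts and mast cells, read 51.9, 28.6 and 24.5 on the KO-labelled arrays and 126, 92.7 and 75.2 on the Control arrays, a difference of -1.53 ± 0.35 without overlap (2.89-fold lower; adjusted p = 0.221). Tfec, a member found mainly in macrophages, read 785, 370.3 and 666 against 1059, 1424 and 973, a difference of -0.97 ± 0.34 without overlap (1.96-fold lower; adjusted p = 0.338). Tfe3, which is X-linked, read 112, 290.4 and 119 against 173, 97.3 and 133, overlapped at 0.26 ± 0.43, and was -0.18 without KO-labelled replicate 2. The genes Mitf, Tfec, Tfe3 and M6pr were described after their values were seen.

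The mannose 6-phosphate receptors gave differences of opposite sign. Igf2r, the large receptor that also clears insulin-like growth factor 2, read 245, 168 and 114 on the KO-labelled arrays and 18.7, 32.3 and 13.4 on the Control arrays, with Control replicate 3 below its background limit. The groups were far apart, at 3.06 ± 0.42 or at least 7.01-fold higher with that array raised to its limit. Its adjusted p was 0.108, above the threshold, and between 0.0218 and 0.337 in the alternatives, under 0.05 in 3 of them. A further Igf2r probe set also separated the groups (105.7, 59.2 and 80.2 against 12.4, 13.6 and 7.42). M6pr, the smaller receptor, read 1208, 1080.5 and 1223 against 1307, 1297 and 1312, a difference of -0.16 ± 0.17 (adjusted p = 0.735), -0.10 without KO-labelled replicate 2. Nagpa, the enzyme that uncovers the mannose 6-phosphate tag, read 83.9, 50.2 and 56.8 against 129, 146 and 122, a difference of -1.09 ± 0.25 without overlap (2.12-fold lower; adjusted p = 0.218). The difference was -0.38 when the probe sets of Nagpa were averaged, but the other set was at or below background on every array (1.53 to 3.31). Of the other lysosomal genes with a promoter entry, 6 of 48 held TCACGTGA, 3 lower and 3 higher by their means with a median difference of 0.13. Igf2r was among them: its promoter held TCACGTGA 2 times, beginning 49 and 8 bases before the start, capitalised in the stretch chr17:12769687-12769780 on the minus strand.
Igf2r: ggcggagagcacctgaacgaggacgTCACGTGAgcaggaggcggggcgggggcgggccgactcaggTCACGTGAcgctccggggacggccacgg

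**Figure D4:**
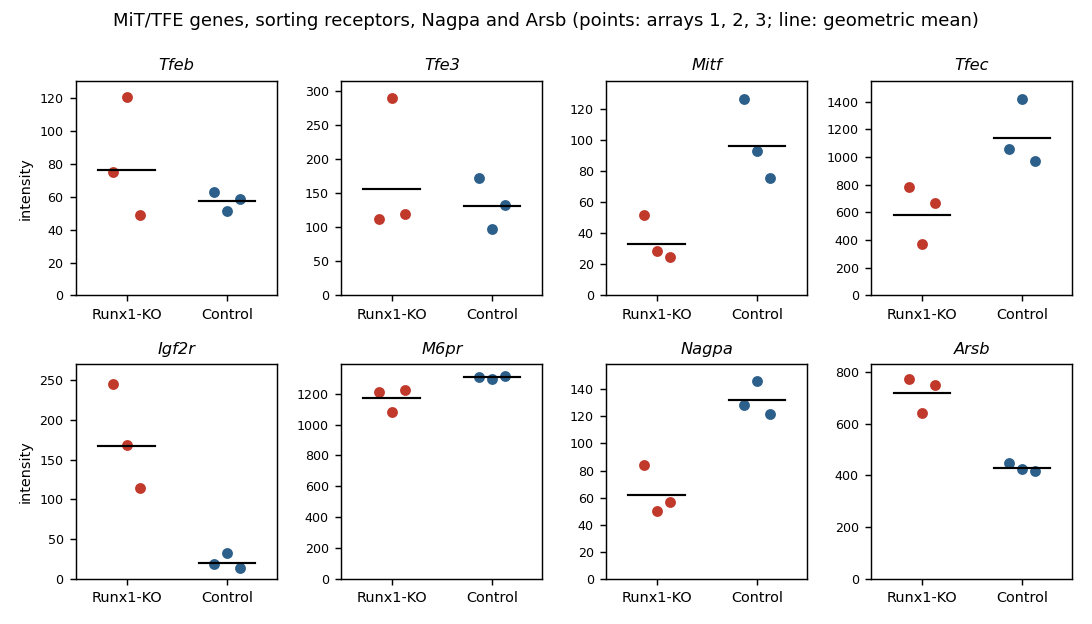
Intensity on a linear axis from 0 in each array for Tfeb, its relatives Tfe3, Mitf and Tfec, the receptors Igf2r and M6pr, Nagpa and the sulfatase Arsb, with the arrays labelled Runx1-KO in red, the Control arrays in blue and lines at geometric means. Igf2r lies between 113.7 and 245.2 in red and between 13.4 and 32.3 in blue, Arsb is likewise higher in red, and Mitf, Tfec, Nagpa and M6pr are lower.

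Other genes related to the lysosome also had mostly lower means. A list of 70 further genes reached beyond proteins of the lysosome itself. It included 10 regulators and sorting genes, such as Mitf, Tfec, Nagpa and Igf2r. The list had 63 genes measured, of which 47 were lower (74.6%, against 50.8% of all genes) and 16 higher, with a median of -0.21. No gene of it passed the threshold in limma (0 of 63, adjusted p from 0.108), with 8 lower (12.7%, against 7.01% of all genes) and 3 higher (against 5.62%) at an unadjusted p under 0.05. Without overlap 18 were lower (28.6%, against 11.7% of all genes) and 5 higher (7.94%, against 9.17%). The other 7 were not analysed here. Scpep1, a serine carboxypeptidase, read 141, 139.8 and 108 on the KO-labelled arrays and 195, 214 and 305 on the Control arrays (-0.86 ± 0.25, adjusted p = 0.286). Prcp, a prolyl carboxypeptidase, read 481, 559 and 436 against 701, 641 and 755 (-0.51 ± 0.19, adjusted p = 0.356). Both separated the groups.

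Of the further glycosidases and sulfatases, Arsb, which desulfates dermatan sulfate, was higher rather than lower: it read 771, 639.6 and 749.8 against 446, 423 and 416, a difference of 0.74 ± 0.18 without overlap (1.68-fold higher; adjusted p = 0.221). Aga, which cleaves asparagine-linked glycans, read 537, 409 and 385 against 579.8, 751 and 569 (-0.52 ± 0.22, adjusted p = 0.412), without overlap in the other direction. All 7 measured further lipid enzymes and phosphatases had lower means. Pla2g15, a lysosomal phospholipase, read 389, 152 and 247 against 457, 582 and 437, a difference of -0.997 ± 0.37 without overlap (adjusted p = 0.354), -0.66 without KO-labelled replicate 2. Acp5, the tartrate-resistant phosphatase of osteoclasts and macrophages, read 34.6, 94.9 and 42.2 against 183, 75.4 and 85.8 (-1.03 ± 0.50, adjusted p = 0.45), with overlap and a wide spread in both groups; it was -0.64 without Control replicate 1 and -0.35 without both arrays numbered 1.

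The further membrane proteins counted 7 lower and 4 higher. Slc29a3, a nucleoside transporter, read 204, 247 and 174 on the KO-labelled arrays and 293, 306 and 306 on the Control arrays (-0.55 ± 0.20, adjusted p = 0.35), and Mfsd8, a transporter mutated in a neuronal ceroid lipofuscinosis, read 124, 83.9 and 104 against 65.5, 76.0 and 47.8 (0.73 ± 0.26, adjusted p = 0.344); both separated the groups, in opposite directions. Further pump subunits had 11 lower and 2 higher means. Atp6v1b2 read 877, 803 and 866 against 1109.5, 1051 and 1045 (-0.33 ± 0.17, adjusted p = 0.459) and Atp6v1c1 1014, 721 and 944 against 1234, 1252 and 1109 (-0.44 ± 0.21, adjusted p = 0.435), both of the catalytic sector and both without overlap; the latter was -0.29 without KO-labelled replicate 2.

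Markers of mature myeloid cells were read on the same arrays. Of 14 monocyte and macrophage markers 13 were measured and 11 were lower, 8 of them without overlap, with a median difference of -1.11 and 0 past the threshold in limma (9 at an unadjusted p under 0.05, all lower); 11.7% of all genes were lower without overlap and 7.01% lower at that p. Their summed intensity was 3280 to 3690 on the KO-labelled arrays and 5110 to 7300 on the Control arrays. Csf1r, the receptor for the macrophage growth factor, read 844, 978 and 915 against 1982, 1359.8 and 1722, and Adgre1, the F4/80 antigen, 66.3, 57.9 and 73.0 against 167, 205 and 131. Other markers on the list overlapped between the groups. Of these, Fcgr1 (0.45) and Cx3cr1 (0.19) had higher means, and Cd14 (-0.06), C1qc (-0.15) and Ccr2 (-1.15) had lower means. C1qa was at or below background on all 6 arrays, Ms4a7 on all KO-labelled arrays and Fcgr1 on all Control arrays. All 11 measured neutrophil markers of 13 were higher, 9 without overlap, with a median of 1.41, 0 past the threshold in limma (8 at an unadjusted p under 0.05, all higher; 9.17% of all genes were higher without overlap and 5.62% higher at that p) and summed intensities of 17300 to 19800 against 9080 to 14000. The part of either cell type in the lysosomal differences was not tested. Control replicate 2, the low Control array for Ctsc, Ctss and Cd68, had the lowest summed monocyte markers of the 3 Control arrays (5110, against 7300 and 6520). It also had their lowest summed neutrophil markers (9080, against 14000 and 10900). The same array was the highest of the 6 for 9 lysosomal genes. Any link between these sums and the lysosomal genes was not tested.

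Other features of the arrays were checked beside these values. Erythroid markers summed to 4820 on Control replicate 1 and to 72.0 to 213.0 on the other 5 arrays and B cell markers to 143.0 to 281.0. T and NK cell markers also separated the groups at intensities near background: 5 of 7 were measured and summed to 66.0 to 77.3 on the KO-labelled arrays and 78.8 to 125.0 on the Control arrays. Of the 5, 4 (Cd3e, Cd3g, Cd5 and Gzma) were lower without overlap (80.0%, against 11.7% of all genes), all 4 at or below background on every KO-labelled array, and Nkg7 was higher; the list's median difference was -1.63, and its part in the lysosomal differences was not tested. The ratio of the 3′ to the 5′ probe set of Gapdh, a sign of RNA quality, was 7.10 on KO-labelled replicate 1 and 2.67 to 3.02 elsewhere. Without KO-labelled replicate 1, 22 lysosomal genes were lower without overlap (59.5%, against 20.5% of all genes), and without both arrays numbered 1, 25 were (67.6%, against 25.4%), with a median difference of -0.34. Without Control replicate 2 the count was 22 (59.5%, against 15.8%).

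**Figure D5:**
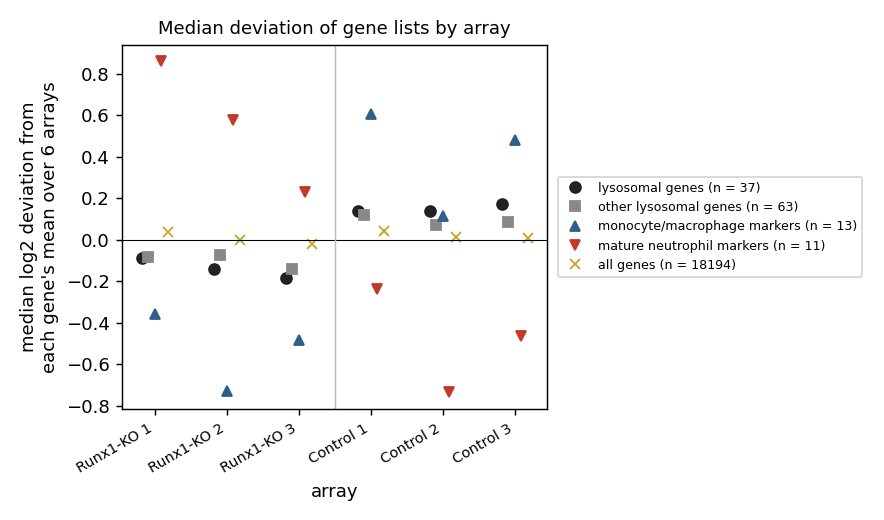
Median deviation on each array, in log2 units from each gene's own mean over the 6 arrays, for the 37 lysosomal genes, 63 other lysosomal genes, 13 monocyte and macrophage markers, 11 neutrophil markers and all 18194 genes. The lysosomal medians lie between -0.19 and -0.07 on the 3 Runx1-KO arrays and between 0.07 and 0.17 on the 3 Control arrays; the monocyte markers are shifted the same way and the neutrophil markers the opposite way, while all genes stay near 0.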

How the data were processed

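Per the labels' protocols, total RNA of 6 mouse leukemias was column-purified, and fragmented cDNA was biotin-labelled (NuGEN Ovation). The authors deposited a linear intensity for each of 45101 probe sets of a 1-colour Affymetrix mouse array, on a common scale and, but for 1 value, at least 1; that value was set to 1. The summarisation, background and normalization steps are not given in the sources used here, and the number of arrays limits the precision.

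Intensities were taken to log2, and probe sets were named from the platform annotation (34958 with 1 symbol, 932 with several, 9211 with none; the last 2 kinds were left out), with 1 probe set per gene, the one of highest mean log2. Groups were compared in limma 3.58.1 (lmFit and eBayes) under R 4.3.3, two-sided, without covariate or filter, with Benjamini-Hochberg adjustment at 0.05 over 18194 genes. The procedure was run on simulated data whose differences exceeded those of every listed gene. Its power at the sizes reported here was not tested. Differences are Runx1-KO minus Control with the moderated standard error (SE), 3 arrays per group, and folds come from them. A gene at or below the brightest of 27 spike-in probe sets that had no target on an array was called at background there; an array at background was raised to that limit for an at-least fold. Promoters and symbols came from RefSeq (GRCm38.p6); 4 measured genes (Ctsb, Ctsh, Asah1 and Atp6v1h) had no promoter entry.

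The genes and lists were chosen with earlier results of these data known. Array values are given for every listed gene past the threshold, for the 4 genes of lowest p in each role group, and for those whose groups did not overlap, 26 in all; the other 11 are summarised unless the text says otherwise. Of the other lysosomal genes, the 2 of lowest p above background in each list were named, 12 in all. The alternatives tried were median centring, quantile normalization, an offset of 16 before the log, the mean of probe sets or all of them, 3 variance models, 2 filters on dim genes, an adjusted p under 0.1, the replicate number as a block, and leaving out each array or both arrays numbered 1.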

Additional observations from a re-analysis of the deposited data

How the results depend on the processing

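The median of the 37 lysosomal genes stayed negative in all 16 alternatives, from -0.40 to -0.29, the last with quantile normalization; leaving out 1 array gave -0.40 to -0.34. Of 26 named genes 24 kept their sign in every alternative, the exceptions being Atp6v1a and Man2b1. The naming rule partly fixed this count, since leaving out arrays cannot change the sign of a gene whose groups did not overlap. Ctsc, not among the 26, changed sign with array weights and without Control replicate 2. Genes lower without overlap numbered 16 to 25 and those higher 1 to 3, the 1 being with averaged probe sets, while the share of all genes ranged from 10.1% to 25.4% lower and from 8.44% to 21.9% higher, rising where fewer arrays were compared; these alternatives were chosen after seeing the data. The number past the threshold was 0 except for 1 with a variance trend and robust fit, and among the other lysosomal genes 0 except for 1, Igf2r, with the dimmer 50% of genes left out, an offset of 16, or the variance trend. Over all genes 16 passed: 25 with dim genes left out, 43 with the dimmer 50% left out, 64 with the offset, 30 with all probe sets, 104 with the variance trend, 71 with array weights, 36 at an adjusted p under 0.1, 2 without moderation, 2 to 3 with 1 array left out and 0 without both arrays numbered 1. The cause was not tested. Replicate numbers did not pair the arrays (correlations of same-numbered deviations -0.01, -0.09 and 0.04), and with the replicate block 0 genes passed.

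Group medians kept their sign in every alternative. They moved to -0.24 for the cathepsins and -0.11 for the membrane proteins with all probe sets, and to -0.48 for the glycosidases, -0.62 for the lipid enzymes and -0.30 for the pump with averaged probe sets. Quantile normalization gave -0.27 for the glycosidases and -0.17 for the other lysosomal genes, which reached -0.25 with array weights. Leaving out 1 array gave -0.39 to -0.30 for the glycosidases, -0.42 to -0.24 for the membrane proteins, -0.47 to -0.28 for the pump and -0.24 to -0.17 for the other lysosomal genes; the pump gave -0.25 without both arrays numbered 1. Genes near background, such as Lgmn and Igf2r on the Control arrays, have only a bound there.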
